A study of Mus musculus with 18 samples.

Results

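This comparison sets tongue carrying a mutant PIK3CA allele against tongue carrying a mutant p53 allele, in 6 and 3 of the 18 mouse RNA sequencing libraries of the study. The E20 libraries are labelled as carrying LSL-PIK3CA H1047R, and the p53 libraries as heterozygous LSL-p53+/R172H. LSL stands for a stop element between loxP sites, which blocks transcription of the allele unless Cre recombinase has cut it out. The labels of E20 and p53 name no Cre driver, whereas those of the double mutant libraries name K14-Cre, which acts in cells with an active keratin 14 promoter. The study's title speaks of tumours initiated with 4NQO, a carcinogen, but no label says which libraries were exposed or came from a tumour. The labels give no age, sex, strain or treatment for any of the 9 libraries. Nothing states that the libraries are separate animals, so p-values measure the spread between libraries, which may be technical. E20 libraries 1-3 and 4-6 formed 2 blocks, and the account is of genes that moved the same way in both. The spread was taken over all 4 groups of the study, so it also holds the gaps between these blocks and between blocks of double mutant libraries. A gene whose E20 and p53 libraries do not overlap can thus fail to pass. A gene counted as moving when its adjusted p was under 0.05 for E20 against p53 in limma, a linear model fitted across all genes, both blocks differed from p53 in that direction, and no E20 library overlapped any p53 library. Of 26143 genes measured, 15206 were tested, and 15192 of these form the account after 14 X inactivation, escape and Y-linked genes were left out. The labels do not say which libraries share a sex, and 5 of the 6 tested Y-linked genes were lower in E20, so sex and genotype cannot be told apart.

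PIK3CA is the catalytic subunit of PI3-kinase, which makes the membrane lipid that recruits AKT, and through AKT drives growth, glucose use and mTOR signalling. H1047R lies in its kinase domain and raises its activity. p53 is a transcription factor that answers DNA damage and stress by switching on genes for cell cycle arrest, repair and apoptosis. R172H changes its DNA-binding domain, and corresponds to a frequent mutation in human tumours. Both genes are often mutated in squamous cancers of the head and neck.

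The libraries were labelled squamous epithelium, but some defining markers were near 0 in all 9, and others differed between groups or blocks. Keratin 14 (Krt14), the keratin of basal squamous cells, was at 0.670, 0.847 and 0.567 CPM (reads scaled to a library total of 1000000) in the 3 p53 libraries. It was at 65.3, 74.4 and 60.0 CPM in E20 libraries 1, 2 and 3, and at 0, 0.0667 and 0 CPM in E20 libraries 4, 5 and 6. The epithelial adhesion genes Cdh1 and Epcam reached at most 0.456 and 0.195 CPM in any of the 9 libraries. Of 20 squamous markers tested 1 rose in E20 and 2 fell (15%, against 29.3% of all genes). Trp63 rose, from 0.866 CPM in p53 to 15.7 and 3.29 CPM in the E20 blocks (limma adjusted p = 0.0438). Krt13 and Sprr1a fell, by 3.16 and 2.96 on the log2 scale. Itgb4 was at 1.02 CPM in p53 and 9.57 and 6.93 CPM in the E20 blocks, and did not pass. The 24 squamous epithelium markers summed to between 20.23 and 23.5 CPM in p53, 197 and 222 CPM in E20 1-3 and 17.7 and 19.3 CPM in E20 4-6. The 18 fibroblast markers summed to between 17867 and 18458 CPM in p53 and between 29033 and 31676 CPM in E20. The libraries are therefore called by their genotype label alone.

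The 9 libraries held between 14769794 and 17836826 reads. Pearson's r across genes was between 0.991 and 0.993 for pairs inside a block, between 0.941 and 0.944 for pairs joining the 2 E20 blocks, between 0.921 and 0.924 for p53 with E20 1-3, and between 0.897 and 0.902 for p53 with E20 4-6. These values describe likeness across genes, which are not replicates. The ribosomal precursor Rn45s took 3.33% of reads in p53 library 3 and between 0.0941% and 0.359% in the others.

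Of the 15192 genes 2073 rose in E20 (13.6%) and 2377 fell (15.6%), 4450 in all (29.3%). Without the demands on blocks and overlap, 2203 genes were called higher (14.5%) and 2499 lower (16.4%). The groups did not overlap for 6925 genes (45.6%). The difference was at least 2-fold in each block for 612 of the genes that rose and 803 of those that fell. It was at least 8-fold over all 6 libraries for 119 that rose and 422 that fell. The median log2 difference of all tested genes was -0.01. Each block taken alone against the same 3 p53 libraries gave 10053 calls for E20 1-3 (66.2%) and 11078 for E20 4-6 (72.9%), and 1331 genes (8.76%) passed in both blocks in opposite directions. When each block of 3 was averaged to 1 value, limma called 0 genes over the 6 block means of the series. The unadjusted p was under 0.05 for 617 of the 15192 genes, a share that is itself below 0.05 and so no excess. Of the 617, 615 were among the 4450, but both come from the same libraries, so the overlap is no separate support. The calls below therefore rest on libraries counted as replicates.

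**Figure D1:**
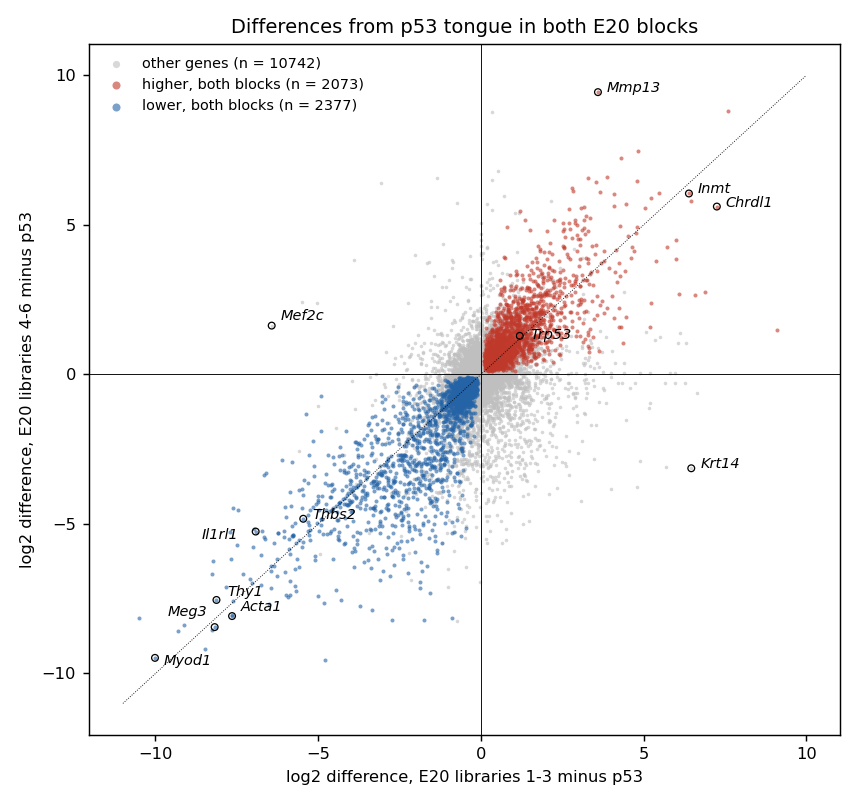
Each point is 1 of the 15192 genes, with the log2 difference of E20 libraries 1-3 from p53 on the horizontal axis and that of E20 libraries 4-6 from the same p53 libraries on the vertical axis. The 2073 genes that rose and the 2377 that fell in both blocks are coloured, the dotted line marks equal differences, and Krt14 and Mef2c lie in opposite quadrants.

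The targeted genes were read first. Trp53 (chr11:69580359-69591873, mm10) stood at 87.7, 82.6 and 74.8 CPM in p53, 181, 199.8 and 180.2 CPM in E20 1-3 and 197, 193 and 208 CPM in E20 4-6. Every E20 library lay above every p53 library, and the difference was 2.37-fold (log2 difference 1.24, SE 0.18, limma adjusted p = 8.99e-05). Pik3ca (chr3:32397671-32468486) stood at 96.6, 96.5 and 102 CPM in p53, 76.8, 80.3 and 79.3 CPM in E20 1-3 and 94.3, 97.2 and 98.9 CPM in E20 4-6. E20 4-6 overlapped p53 and E20 1-3 lay below it, and the gene did not pass (log2 difference -0.17, SE 0.09, limma adjusted p = 0.143). It passed under sample weights, with the replicate number as a block, with upper-quartile scaling and without E20 libraries 4 to 6. These are levels of the whole gene: the table cannot tell a mutant from a wild type transcript, so it does not check whether either allele was switched on.

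Of the genes that p53 is known to activate, those that moved were higher in E20 with 1 exception. Of 32 targets tested, 14 rose and 1 fell, and the median log2 difference was 0.63, against 13.6% risen and a median of -0.01 over all genes. Ephx1, microsomal epoxide hydrolase, was at 70.7, 74.7 and 70.7 CPM in p53, 638, 675 and 621 CPM in E20 1-3 and 414, 393 and 394 CPM in E20 4-6 (log2 difference 2.82, SE 0.29, limma adjusted p = 2.51e-06). Ephx1 is also a member of the list of NRF2 targets read below. The stress-induced tumour suppressor Trp53inp1 went from 14.9 ± 1.58 CPM (mean ± SD, n = 3) in p53 to 126 ± 1.71 CPM (n = 3) in E20 1-3 and 86.0 ± 1.25 CPM (n = 3) in E20 4-6. Fas, a death receptor, was at 14.9, 15.1 and 14.9 CPM in p53 and between 44.7 and 52.8 CPM in E20 (log2 difference 1.71, SE 0.37, limma adjusted p = 0.00228). Bbc3, which encodes the apoptosis inducer PUMA, rose by 1.30 on the log2 scale, Phlda3, which restrains AKT at the membrane, by 1.11, the sestrin gene Sesn1 by 1.18, and Rrm2b, a subunit of the p53-induced ribonucleotide reductase, by 0.39. Cd80, a ligand of T cell costimulation, rose from 0.946 ± 0.438 CPM to 39.5 ± 1.30 and 13.2 ± 0.830 CPM in the 2 blocks. In each of these the groups did not overlap, which the rule for moving requires and which is thus no added support. The gene that fell, Trp53i11, was at 14.99 ± 1.17 CPM in p53 and 5.85 ± 0.371 and 0.180 ± 0.0754 CPM in the E20 blocks and was named after its values were seen. Its call was lost without p53 library 1, 2 or 3 and without E20 libraries 4 to 6.

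The targets Cdkn1a and Mdm2 did not pass. Cdkn1a, which encodes the cell cycle inhibitor p21, was at 223, 232 and 223 CPM in p53, 557, 598 and 547 CPM in E20 1-3 and 173, 173 and 169 CPM in E20 4-6. It lay above p53 in the first block and below it in the second (log2 difference 0.47, SE 0.77, limma adjusted p = 0.693 over the 6 libraries). Mdm2, the ubiquitin ligase that degrades p53, was at 107 ± 8.08 CPM in p53, 205 ± 8.97 CPM in E20 1-3 and 109 ± 0.692 CPM in E20 4-6 (limma adjusted p = 0.092). It passed without E20 library 4, 5 or 6. Both genes were chosen after their values were seen. The median of the 32 targets was 1.01 in E20 1-3 and 0.37 in E20 4-6. Without E20 libraries 4 to 6 the number of targets that moved was 23 in place of 15, and without p53 library 1 it was 10.

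**Figure D2:**
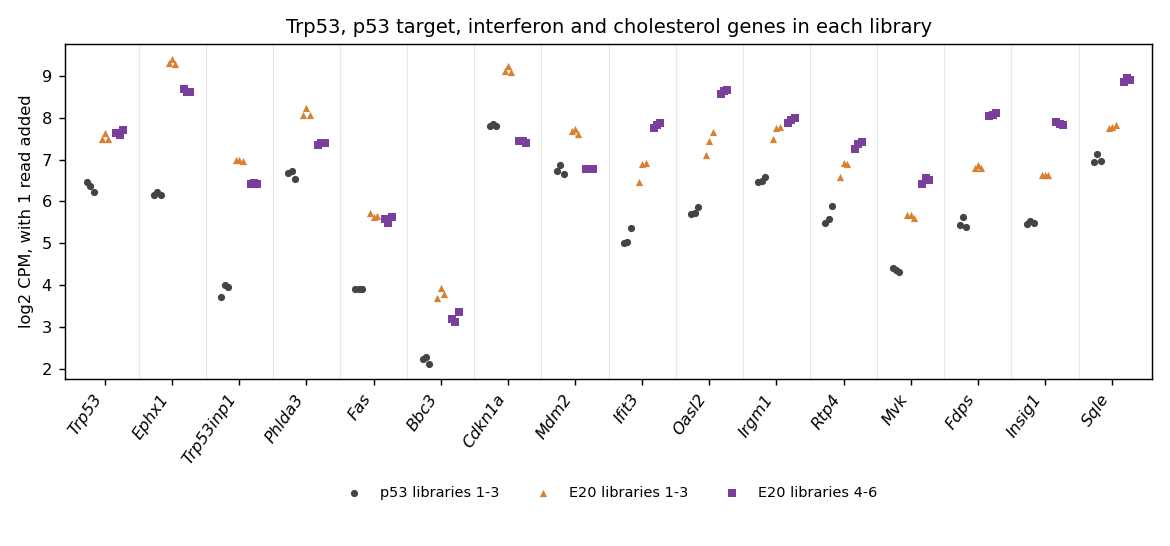
Expression of 16 genes in each of the 9 libraries, as log2 of CPM with 1 read added, with circles for p53, triangles for E20 libraries 1-3 and squares for E20 libraries 4-6. Trp53 and the first 5 targets lie above p53 in all 6 E20 libraries, Cdkn1a does so in E20 1-3 alone, and the interferon and cholesterol genes lie highest in E20 4-6.

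Among 37 genes of the PI3-kinase and AKT pathway 6 rose and 4 fell (27.0%), close to the 29.3% of all genes, with a median log2 difference of 0.01. The regulatory subunits stood out within the list. Pik3r1 (chr13:101680563-101768217), which encodes p85 alpha, the adaptor that stabilises and restrains the catalytic subunit, was at 108, 98.3 and 111 CPM in p53, 303, 292 and 305 CPM in E20 1-3 and 397, 389.5 and 369.9 CPM in E20 4-6. Its groups lay far apart relative to their spread (log2 difference 1.69, SE 0.09, limma adjusted p = 3.17e-09). Pik3r2, the p85 beta gene, rose by 0.47 and Pik3r3, the p55 gamma gene, by 1.22 on the log2 scale. Ddit4, an inhibitor of mTOR complex 1, rose from 125 ± 1.97 CPM to 194 ± 8.45 and 225 ± 10.1 CPM. On the lower side, Sgk1, a kinase related to AKT, was at 150.3, 146 and 152 CPM in p53 and between 70.9 and 105 CPM in E20 (log2 difference -0.80, SE 0.10, limma adjusted p = 1.34e-05). Rptor, the scaffold of mTOR complex 1, fell by 0.27 on the log2 scale.

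Skeletal muscle genes differed by large amounts. Of 34 muscle genes tested, 24 fell in E20 and 1 rose, with a median log2 difference of -4.41, against 15.6% fallen over all genes. Myod1 (chr7:46376474-46379099), a master regulator of muscle commitment, was at 157, 149 and 153 CPM in p53, 0.0682, 0.117 and 0.0681 CPM in E20 1-3 and 0.203, 0.200 and 0.0687 CPM in E20 4-6 (log2 difference -9.75, SE 1.60, limma adjusted p = 0.000234). Myog (chr1:134289989-134292548), myogenin, which starts terminal differentiation, was at 119.9, 126 and 113 CPM in p53 and between 0 and 0.467 CPM in E20 (log2 difference -9.33, SE 1.66, limma adjusted p = 0.000472). Mymk, myomaker, which fuses myoblasts into fibres, was at 73.7, 73.2 and 68.4 CPM in p53 and at most 0.273 CPM in E20. All 3 p53 libraries were alike for these genes, and the 6 E20 libraries were alike at the other end.

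The contractile apparatus followed. Acta1, skeletal actin, was at 186, 184 and 168 CPM in p53, 0.682, 0.818 and 1.02 CPM in E20 1-3 and 0.542, 0.801 and 0.481 CPM in E20 4-6 (log2 difference -7.86, SE 1.21, limma adjusted p = 0.000127). Mylpf, the fast regulatory myosin light chain, went from 156 ± 11.8 CPM (n = 3) to 0.961 ± 0.365 and 1.47 ± 0.0446 CPM (n = 3 each). Tnnt2, the troponin T of embryonic muscle and heart, fell by 6.69, Tnni1, slow troponin I, fell by 7.86, and Tnnc1, slow troponin C, fell by 3.55 on the log2 scale. Ryr1, the calcium channel of the sarcoplasmic reticulum, was at 45.7, 36.4 and 50.5 CPM in p53 and between 1.09 and 1.94 CPM in E20 (log2 difference -4.75, SE 0.26, limma adjusted p = 2.95e-09). Neb, nebulin, the ruler of the thin filament, fell by 5.00. Myh3, embryonic myosin heavy chain, had 1665 reads over the p53 libraries and 2 over the E20 libraries, a ratio of 1638 with a 95% counting interval from 453 to 13540. Ckm, muscle creatine kinase, had 71 reads in p53 and 0 in E20, and was at least 46.6-fold lower in E20 against a floor of 3 reads over the group. Intervals and floors cover counting error alone.

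The precursor genes Pax7 and Myf5 did not pass. Pax7, which marks muscle stem cells, was at 47.6, 38.8 and 44.4 CPM in p53, 62.4, 55.9 and 62.9 CPM in E20 1-3 and 38.0, 40.4 and 34.0 CPM in E20 4-6, and the groups overlapped (log2 difference 0.13, SE 0.93, limma adjusted p = 0.937). Myf5, an early myogenic factor, was at 60.2 ± 6.97 CPM in p53, 86.8 ± 2.91 CPM in E20 1-3 and 46.1 ± 0.767 CPM in E20 4-6. Des, desmin, the intermediate filament of muscle, was at 752, 778 and 699 CPM in p53 and between 533 and 662 CPM in E20, without overlap. Des did not pass (limma adjusted p = 0.941), although in a fit of the 9 libraries alone it did (limma adjusted p = 0.0136). Chrnb1, the beta subunit of the acetylcholine receptor, fell from 104 ± 2.39 CPM to 35.6 ± 1.94 and 26.6 ± 0.746 CPM (log2 difference -1.76, SE 0.12, limma adjusted p = 4.61e-08). Megf10, a receptor of muscle satellite cells, fell by 1.21 on the log2 scale. The gene that rose was Myf6, another myogenic factor, at 0.416 ± 0.223 CPM in p53 and 1.49 ± 0.126 and 1.85 ± 0.304 CPM in the E20 blocks. The call of Myf6 was lost when any 1 of the 9 libraries was left out. Pax7, Myf5, Des and Myf6 were named after their values were seen. In bulk libraries, fewer cells of a type and less RNA per cell cannot be told apart. The 34 muscle markers summed to between 3598 and 3646 CPM in p53, 1109 and 1172 CPM in E20 1-3 and 977 and 1036 CPM in E20 4-6, and 3 of the 34 had 0 reads in all 6 E20 libraries.

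**Figure D3:**
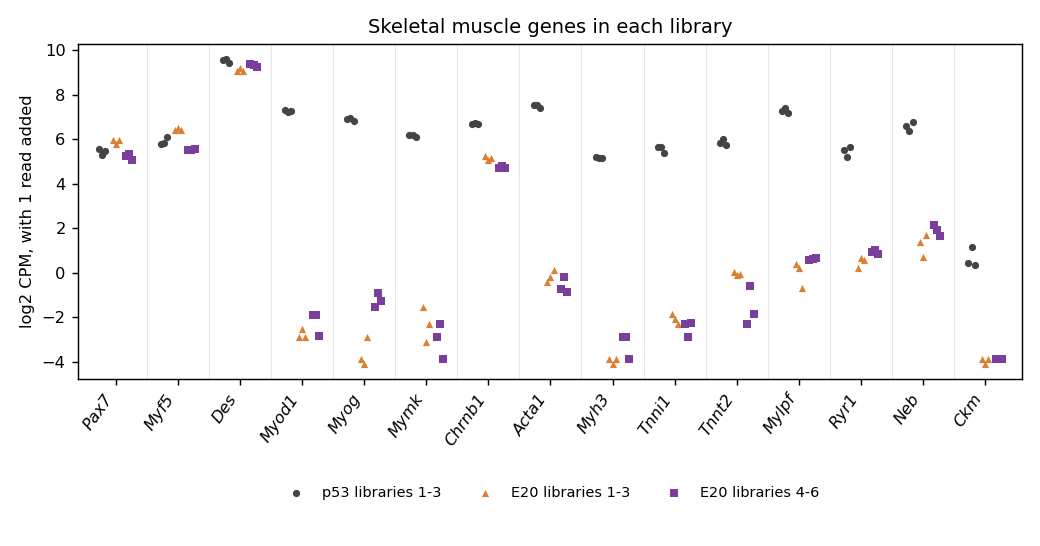
Expression of 15 skeletal muscle genes in each of the 9 libraries, as log2 of CPM with 1 read added, with circles for p53, triangles for E20 libraries 1-3 and squares for E20 libraries 4-6. Pax7, Myf5 and Des did not pass in the fit of all libraries, and the genes from Myod1 rightwards lie lower in all 6 E20 libraries.

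Promoters of the muscle genes were read because MyoD and myogenin bind the E-box CAGCTG. RefSeq windows (GRCm38.p6) from 250 bases before to 50 after the start were at hand for 18 of the 24 genes that fell. The letters CAGCTG, the same on both strands, were in 8 of the 18 genes (44.4%), against 18.3% of 27025 genes with a window. The first 2 by adjusted p, among genes with 1 window and a match, are shown with the match in capitals, 5' to 3' on the strand of the gene: Mylpf at chr7:127211358-127211657 and Ckm at chr7:19410844-19411143.
Mylpf: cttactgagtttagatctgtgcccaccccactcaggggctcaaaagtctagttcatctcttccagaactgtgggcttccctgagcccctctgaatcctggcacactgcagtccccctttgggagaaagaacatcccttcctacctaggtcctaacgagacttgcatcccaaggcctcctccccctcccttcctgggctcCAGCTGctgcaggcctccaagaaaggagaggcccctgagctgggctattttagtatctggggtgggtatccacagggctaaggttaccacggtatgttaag
Ckm: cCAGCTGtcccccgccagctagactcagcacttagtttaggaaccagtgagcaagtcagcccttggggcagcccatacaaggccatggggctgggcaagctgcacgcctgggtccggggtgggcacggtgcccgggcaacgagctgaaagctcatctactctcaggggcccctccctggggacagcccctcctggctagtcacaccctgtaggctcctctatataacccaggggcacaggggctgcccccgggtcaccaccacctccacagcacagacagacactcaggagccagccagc
A match is a run of letters in the reference and not a measured binding site.

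Interferon-stimulated genes were higher in E20, and further so in libraries 4-6. Of 40 tested, 31 rose and 0 fell, with a median log2 difference of 1.63 over the 6 libraries, 0.91 in E20 1-3 and 2.47 in E20 4-6, against 13.6% risen over all genes. Ifit3, an RNA-binding antiviral protein, was at 31.9, 32.5 and 41.4 CPM in p53, 88.3, 119.7 and 120.0 CPM in E20 1-3 and 217, 228 and 233 CPM in E20 4-6 (log2 difference 2.16, SE 0.29, limma adjusted p = 3.61e-05). E20 library 1 was the lowest of the 6 and, as the rule for moving requires, lay above all p53 libraries. Ifit3b, its near-identical neighbour, rose by 2.38 on the log2 scale, and reads may be split between these copies. Oasl2, of the family that senses double-stranded RNA, rose from 54.5 ± 3.69 CPM to 171 ± 31.3 and 396 ± 15.3 CPM (log2 difference 2.25, SE 0.31, limma adjusted p = 4.12e-05). The GTPase Irgm1 rose by 1.29, the receptor chaperone Rtp4 by 1.43, Ifi35 by 0.86 and the Schlafen gene Slfn2 by 3.71. Gbp2b, a guanylate-binding GTPase, was at 0, 0 and 0.315 CPM in p53 and between 20.9 and 54.0 CPM in E20 (log2 difference 8.20, SE 1.23, limma adjusted p = 0.000104), and it too has a close copy, Gbp2. The membrane protein Ifitm3, which blocks virus entry, rose from 587 ± 25.9 CPM to 1059.7 ± 41.2 and 1357 ± 19.3 CPM. The 10 leukocyte markers summed to between 6.23 and 7.37 CPM in p53, 19.6 and 22.8 CPM in E20 1-3 and 5.54 and 7.18 CPM in E20 4-6. Most of the higher sum in E20 1-3 was Lyz2, at 0.733 CPM in p53 and 15.1 and 2.19 CPM in the E20 blocks. Lyz2 was the 1 of 4 tested that moved. Cd68 was at 3.34 CPM in p53 and 3.32 and 1.51 CPM in the E20 blocks, and Csf1r at 1.90, 1.65 and 0.835 CPM. Ptprc, the pan-leukocyte marker, reached at most 0.134 CPM in any of the 9 libraries, and the part of leukocyte RNA in the difference was not tested.

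Of 13 genes of presentation on MHC class I 5 rose and 3 fell, against 13.6% risen and 15.6% fallen over all genes, the rises including the peptide transporter Tap1 and the nonclassical H2-T23. Psmb10, a subunit of the immunoproteasome, rose by 1.09, and Tapbp, tapasin, which loads peptides onto class I, by 0.97 on the log2 scale. H2-D1, a classical class I heavy chain, was at 334, 336 and 325 CPM in p53 and between 113 and 132 CPM in E20, so that it fell while the interferon genes rose (log2 difference -1.47, SE 0.27, limma adjusted p = 0.000679). H2-Q4, a related heavy chain, fell by 1.10. Class I genes are alike in sequence and differ between mouse strains, and the labels give no strain. The shared light chain B2m, named after its values were seen, went from 918 ± 51.5 CPM to 627 ± 15.9 and 822 ± 15.4 CPM (limma adjusted p = 0.0157), and its call was lost without p53 library 2 or 3 and without E20 libraries 1 to 3.

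The promoters of interferon-stimulated genes are shown because promoters of this class are known for an element called ISRE. The letters GAAA, any 2 bases and GAAA, on either strand, were in the windows of 16 of 23 genes that rose and had one (69.6%), against 3.99% of the 27025 genes. Matches can overlap each other, as in Irgm1. The first 3 genes by adjusted p with 1 window and a match were Ifit3b at chr19:34607707-34608006, Ifit3 at chr19:34583279-34583578 and Irgm1 at chr11:48871371-48871670, with matches in capitals on the strand of the gene, of which Irgm1 lies on the minus strand.
Ifit3b: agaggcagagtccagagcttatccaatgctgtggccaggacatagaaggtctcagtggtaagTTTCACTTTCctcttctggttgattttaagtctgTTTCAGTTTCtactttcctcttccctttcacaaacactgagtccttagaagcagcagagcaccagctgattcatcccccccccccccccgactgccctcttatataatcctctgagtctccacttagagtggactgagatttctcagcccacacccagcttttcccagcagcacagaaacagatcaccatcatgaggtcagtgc
Ifit3: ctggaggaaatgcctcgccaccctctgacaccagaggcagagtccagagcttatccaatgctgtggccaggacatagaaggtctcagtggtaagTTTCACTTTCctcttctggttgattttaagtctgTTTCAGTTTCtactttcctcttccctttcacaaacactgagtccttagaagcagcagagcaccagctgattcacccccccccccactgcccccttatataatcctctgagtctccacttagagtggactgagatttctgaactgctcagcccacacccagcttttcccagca
Irgm1: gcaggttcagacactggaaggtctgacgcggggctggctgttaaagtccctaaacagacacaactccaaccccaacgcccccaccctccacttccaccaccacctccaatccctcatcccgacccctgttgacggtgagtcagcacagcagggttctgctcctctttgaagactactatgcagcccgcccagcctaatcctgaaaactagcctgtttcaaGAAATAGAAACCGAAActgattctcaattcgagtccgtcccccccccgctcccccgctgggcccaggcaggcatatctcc
Each window holds 2 matches, and those of Ifit3 and Ifit3b are the same letters.

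Most genes of cholesterol synthesis were higher in E20. Of 22 genes 18 rose and 0 fell, against 13.6% risen over all genes, with a median log2 difference of 1.52, of 0.85 in E20 1-3 and of 2.13 in E20 4-6. Mvk, mevalonate kinase, was at 21.1, 20.33 and 19.8 CPM in p53, 51.3, 51.2 and 48.5 CPM in E20 1-3 and 85.8, 94.6 and 91.6 CPM in E20 4-6 (log2 difference 1.72, SE 0.24, limma adjusted p = 4.58e-05). The 3 sets followed each other in that order without overlap. Fdps, farnesyl diphosphate synthase, rose by 1.97, Sqle, squalene epoxidase, by 1.33, and Insig1, whose protein is a brake on the pathway, from 45.1 ± 1.13 CPM to 99.0 ± 0.580 and 232 ± 6.51 CPM. Srebf2, which encodes the transcription factor SREBP2 that drives these genes and was named after its values were seen, was at 249 ± 19.2 CPM in p53, 213 ± 11.2 CPM in E20 1-3 and 456 ± 5.10 CPM in E20 4-6, and did not pass. Without E20 libraries 4 to 6, 10 of the 22 genes moved. The sterol element TCACNCCAC was in the window of 1 of 11 genes with one (9.09%), against 1.44% of the 27025 genes.

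Some folding genes of the endoplasmic reticulum were higher. Of 22 genes of the unfolded protein and stress response 9 rose and 0 fell (40.9%), against 13.6% risen over all genes, with a median of 0.82 on the log2 scale. Pdia6, a disulphide isomerase, was at 368, 397 and 362 CPM in p53, 627, 678 and 621 CPM in E20 1-3 and 855, 824 and 811 CPM in E20 4-6 (log2 difference 0.96, SE 0.10, limma adjusted p = 3.83e-06). Pdia4, of the same family, rose by 1.19, Sdf2l1, a chaperone partner, by 1.48, and Herpud1, which helps to clear misfolded proteins, by 1.06. In a fit of the 9 libraries alone 18 of the 22 genes moved.

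Many genes of mitosis and DNA replication were lower in E20 by small amounts. Of 24 mitosis genes 15 fell and 0 rose, with a median log2 difference of -0.47, and of 25 DNA replication genes 16 fell and 0 rose, with a median of -0.41, against 15.6% fallen over all genes. Aurka, the kinase of the spindle poles, was at 151, 154 and 141 CPM in p53, 87.2, 93.5 and 86.9 CPM in E20 1-3 and 85.4, 87.4 and 89.7 CPM in E20 4-6 (log2 difference -0.75, SE 0.06, limma adjusted p = 7.19e-08). The E20 blocks were alike here. Kif11, a spindle motor, fell by 0.62, Ccnb1, the cyclin of mitotic entry, by 0.66, and Cenpe, a kinetochore motor, by 0.77 on the log2 scale. For replication, the helicase loader Cdc6 fell by 0.66, the helicase subunit Mcm5 by 0.38, Mcm10, which activates the helicase, by 0.68, and the polymerase Pole by 0.60. Mki67, the proliferation marker, did not pass, at 373 ± 14.96 CPM in p53 and 358 ± 24.7 and 484 ± 4.35 CPM in the E20 blocks, and was named after its values were seen.

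Of 21 G1 cyclins, CDKs and inhibitors 8 fell and 0 rose (38.1%), against 15.6% fallen over all genes, and those that fell include both inhibitors and drivers of the cycle. Cdkn2a (chr4:89274471-89294653), the locus of the inhibitors p16 and ARF, was at 243, 233 and 233 CPM in p53, 26.5, 26.9 and 26.7 CPM in E20 1-3 and 17.2, 16.9 and 16.7 CPM in E20 4-6. This was 11.1-fold lower in E20 (log2 difference -3.47, SE 0.34, limma adjusted p = 1.58e-06), and a gene level does not part its 2 transcripts. Cdkn1c, the inhibitor p57 and an imprinted gene, went from 14.3, 13.2 and 12.7 CPM in p53 to between 0.481 and 1.34 CPM in E20 (log2 difference -3.94, SE 0.34, limma adjusted p = 4.24e-07). The drivers of S phase E2f1 and E2f3 fell by 0.57 and 0.60 on the log2 scale. Of 25 genes of ERK feedback and AP-1 7 fell and 0 rose (28% moved, against 29.3% of all genes moved and 15.6% fallen). Among them were Myc, at 105 ± 2.93 CPM in p53 and 71.8 ± 1.22 and 59.2 ± 3.70 CPM in the E20 blocks, and Dusp5, the nuclear ERK phosphatase, which fell by 2.08. The early response genes Egr3 and Ier3 fell by 1.17 and 0.83.

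**Figure D4:**
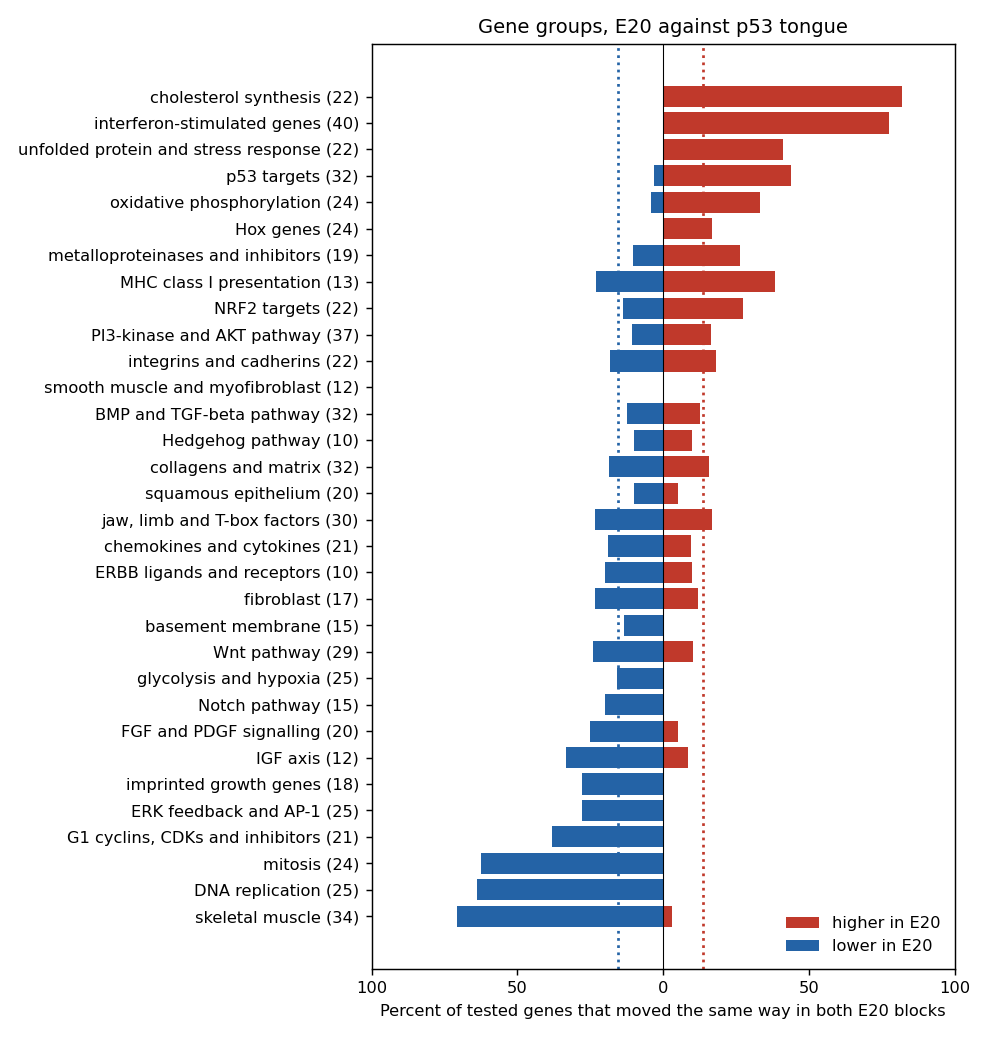
Bars give the percent of tested genes in each list that moved the same way in both E20 blocks, higher to the right and lower to the left, with the number tested in brackets and 32 lists of at least 10 tested genes shown. Dotted lines mark the shares over all genes, 13.6% higher and 15.6% lower.

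Of 32 collagens and matrix genes 5 rose and 6 fell (34.4%), and of 17 fibroblast markers 2 rose and 4 fell (35.3%), both near the 29.3% of all genes. The median log2 difference was 0.33 for the matrix genes and 0.12 for the fibroblast markers. Thbs2, thrombospondin 2, was at 477, 466 and 511 CPM in p53 and between 10.1 and 19.2 CPM in E20 (log2 difference -5.14, SE 0.97, limma adjusted p = 0.000761). Loxl2, which crosslinks collagen, was at 199, 213 and 207 CPM in p53, 8.79, 10.9 and 10.4 CPM in E20 1-3 and 4.94, 4.54 and 3.78 CPM in E20 4-6. Tenascin C (Tnc) fell by 2.13, fibulin 2 (Fbln2) by 1.21, and the collagen IV chain Col4a6 fell by 3.85. Col18a1, the precursor of endostatin, rose by 1.67, and the collagen VI chain Col6a1 rose by 1.35, from 315 ± 17.1 CPM to 804 ± 25.8 and 796 ± 58.7 CPM. Col1a1, the main chain of collagen I, was at 2913 ± 232 CPM in p53, 5231 ± 523 CPM in E20 1-3 and 5012 ± 367 CPM in E20 4-6, without overlap. It did not pass with all 18 libraries (limma adjusted p = 0.776) and did with the 9 alone (limma adjusted p = 0.000402). Col1a2, Col3a1 and the fibronectin gene Fn1 also lay above p53 in every E20 library and did not pass with all 18. The 3 collagen genes that did not pass were named after their values were seen. The count of matrix genes that moved was 11 with all libraries and 5 without p53 library 1 or p53 library 3.

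Cell surface and stromal markers differed further. Thy1, a surface protein of fibroblasts, was at 123, 137 and 116 CPM in p53 and between 0.272 and 0.745 CPM in E20 (log2 difference -7.83, SE 0.48, limma adjusted p = 8.15e-09). Pdgfra, the receptor of platelet-derived growth factor on mesenchymal cells, fell from 394 ± 8.73 CPM to 60.5 ± 2.67 and 188 ± 11.6 CPM. Dpt, dermatopontin, fell by 4.35, and Twist2, a mesenchymal transcription factor, by 2.27. The 2 fibroblast markers that rose were Dcn, decorin, a proteoglycan of collagen fibrils, by 1.11, and Twist1, the paralogue of Twist2, by 0.71. Both calls were lost without p53 library 2 or 3 and without E20 libraries 1 to 3, and that of Dcn also without p53 library 1 and with the replicate block. Itga7, the laminin receptor of muscle, fell by 1.99 and the cadherin Cdh6 by 3.28, whereas the integrins Itgb5 and Itgb8 rose by 0.67 and 1.92. Among 19 metalloproteinases and inhibitors 5 rose and 2 fell (36.8%, against 29.3% of all genes). Mmp13, a collagenase, was at 0.870, 0.521 and 0.693 CPM in p53, 9.47, 9.99 and 7.62 CPM in E20 1-3 and 568, 539.5 and 455 CPM in E20 4-6, so that the second block was far above the first (log2 difference 6.52, SE 1.37, limma adjusted p = 0.00182). Mmp9, a gelatinase, rose by 2.24, Mmp14, a membrane collagenase, by 0.69, and Adamts1, which cleaves proteoglycans, by 1.46. Mmp23 fell.

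Among signalling genes, Il1rl1, the interleukin 33 receptor, was at 1109, 1145 and 1131 CPM in p53, 9.41, 7.77 and 10.8 CPM in E20 1-3 and 29.3, 29.3 and 29.9 CPM in E20 4-6 (log2 difference -6.09, SE 0.39, limma adjusted p = 1.56e-08). Of 21 chemokines and cytokines 2 rose and 4 fell (28.6%, near the 29.3% of all genes). Cxcl1, which attracts neutrophils, rose by 1.22, while Ccl2, which attracts monocytes, fell by 1.27, Ccl8 by 1.49 and Il6 by 1.16. Of 29 Wnt pathway genes 3 rose and 7 fell (34.5%). The antagonist Dkk2 fell by 3.52 and the R-spondin receptor Lgr6 by 4.15, and the antagonist Frzb rose by 3.22. Of 32 BMP and TGF-beta genes 4 rose and 4 fell (25%, below the share of all genes), and 21 moved without E20 libraries 1 to 3. Grem1, a BMP antagonist, was at 118, 109 and 127 CPM in p53, 523, 523 and 569 CPM in E20 1-3 and 445, 466 and 461 CPM in E20 4-6 (log2 difference 2.07, SE 0.21, limma adjusted p = 2.59e-06). Ltbp1, which stores TGF-beta in the matrix, fell by 1.02, and the receptor Tgfbr2 rose by 0.97. The ligand Bmp6 also fell. The Notch ligand Dll1 fell by 2.17 and Pdgfb, the B chain of platelet-derived growth factor, by 4.94. In the ERBB family the ligand Hbegf fell by 2.70, the receptor Erbb3 by 4.90, and the ligand Btc rose by 1.84.

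Of 18 imprinted growth genes 5 fell and 0 rose (27.8% moved, against 29.3% of all genes moved and 15.6% fallen), Plagl1 and Cdkn1c among them. Meg3, a long noncoding RNA of the Dlk1-Dio3 domain on chromosome 12, had 1092 reads over the p53 libraries and 1 over the E20 libraries, a ratio of 2148 with a 95% counting interval from 385 to 84930. Rian, its neighbour, had 1158 reads against 1, and Dlk1, a protein-coding gene of the same domain, 89 reads against 2. The 3 genes were thus near 0 in all 6 E20 libraries. H19 and Igf2, imprinted genes of another domain that were named after their values were seen, lay lower in E20 without overlap, at 9993 ± 616 and 2878 ± 91.7 CPM in p53, 1966 ± 94.4 and 1412 ± 47.1 CPM in E20 1-3 and 607 ± 20.38 and 72.6 ± 1.87 CPM in E20 4-6. Neither passed with all 18 libraries (limma adjusted p = 0.305 and 0.313), and H19 passed with the 9 alone (limma adjusted p = 0.000811). Of 30 jaw, limb and T-box factors 5 rose and 7 fell (40%, against 29.3% of all genes). Lhx8, a homeobox factor of the jaw, was at 13.1, 14.6 and 13.0 CPM in p53 and at most 0.343 CPM in E20 (log2 difference -6.49, SE 0.61, limma adjusted p = 1.02e-06), and Hand2 and Msx2 fell by 4.90 and 3.38. Dlx5 and Foxf1 rose. Of 24 Hox genes 4 rose and 0 fell (16.7%, against 13.6% risen over all genes), with Hoxa7 at 0.0861 ± 0.0346 CPM in p53 and 1.44 ± 0.491 and 14.3 ± 2.62 CPM in the E20 blocks, and Hoxd8 up by 4.51. The count was 2 without p53 library 1 or p53 library 2, and 2 without E20 libraries 4 to 6.

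Genes of metabolism were read from 3 lists, and adipocyte markers from 1 more. Of 24 oxidative phosphorylation genes 8 rose and 1 fell (37.5%, against 29.3% of all genes), with Atp5a1, a subunit of ATP synthase, up by 0.43, and Cycs, cytochrome c, down by 0.34. The count that moved was 4, 6 or 3 without p53 library 1, 2 or 3, and 3 without E20 libraries 4 to 6. Of 25 glycolysis and hypoxia genes 4 fell and 0 rose (16%, near the 15.6% fallen over all genes), and 12 moved without E20 libraries 4 to 6. Pgk1, phosphoglycerate kinase, fell from 244 ± 17.7 CPM to 104 ± 1.49 and 138 ± 2.80 CPM. Pgam1 fell as well. Of 22 NRF2 targets 6 rose and 3 fell (40.9%), and Ephx1, given above with the p53 targets, is among those that rose. The glutathione transferases Gsta3 and Gstm1 rose by 2.43 and 1.67, in families with close copies, and Gsr, glutathione reductase, fell by 0.44, as did G6pdx. Of 4 adipocyte markers tested 1 rose and 2 fell, a number too small to set against the 29.3% of all genes. Lpl, lipoprotein lipase, fell from 156, 161 and 163 CPM in p53 to between 6.67 and 34.6 CPM in E20 (log2 difference -3.36, SE 0.62, limma adjusted p = 0.000677). Fabp4 fell by 3.11 on the log2 scale, and the adipocyte regulator Pparg rose by 0.83.

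Several of the largest rises lay outside these lists. Chrdl1, a BMP antagonist, was at 1.27, 1.30 and 1.39 CPM in p53, 214, 209.9 and 209 CPM in E20 1-3 and 68.4, 66.8 and 68.0 CPM in E20 4-6 (log2 difference 6.43, SE 0.43, limma adjusted p = 2.09e-08). Inmt, a methyltransferase of indoles, had 889 reads over E20 and 3 over p53, a ratio of 151 with a 95% counting interval from 51.4 to 732. Cyp2f2, a cytochrome P450, was at 0.0670, 0.130 and 0.0630 CPM in p53 and between 7.21 and 16.8 CPM in E20. The epithelial ETS factor Ehf went from 0, 0.326 and 0.126 CPM in p53 to 7.29, 7.65 and 7.83 CPM in E20 1-3 and 11.8, 11.5 and 10.7 CPM in E20 4-6. Hs3st1, which sulphates heparan sulphate, rose by 5.31, Sorcs1, a sorting receptor, by 5.25, Mme, the membrane peptidase neprilysin, by 5.23, and the matrix protein gene Abi3bp by 4.99. Mgp, an inhibitor of calcification, rose from 21.5 ± 1.04 CPM to 195 ± 9.98 and 765 ± 43.0 CPM (log2 difference 4.17, SE 0.69, limma adjusted p = 0.000233).

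The 1331 genes that passed in both blocks in opposite directions bound what can be said of E20 as 1 group. Of these 638 were higher in E20 1-3 and lower in E20 4-6, and 693 the reverse, and 0 of them were called over the 6 libraries. Mef2c, a muscle and neural crest transcription factor, was at 6.70, 6.71 and 7.50 CPM in p53, 0, 0.0584 and 0 CPM in E20 1-3 and 22.5, 22.6 and 20.19 CPM in E20 4-6. Plac8 stood at 3.14 ± 0.356 CPM in p53, 1.21 ± 0.341 CPM in E20 1-3 and 305 ± 16.4 CPM in E20 4-6, and Brinp3 at 2.30 ± 0.0749, 0.217 ± 0.0497 and 202 ± 6.09 CPM. Krt14, given above, ran the other way. For these 4 genes the mean of the 6 E20 libraries describes neither block.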

How the data were processed

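RNA was sequenced in 18 mouse libraries in 4 groups, of which E20 (6) and p53 (3) are compared here. The tools that the submitters' processing notes name are bcl2fastq 1.8.4 (demultiplexing), Trimmomatic (trimming) and featureCounts (counting), with mm10 as the build, and per the labels the kit was TruSeq Stranded mRNA LT. No source used here gives the aligner, the annotation or the scaling method. The deposited values are on a log2 scale, that of the read number plus 1 divided by a scaled total of the library, since 100% of them gave whole reads within 0.001, and levels here are those reads over that total times 1000000 (CPM). CPM is not divided by gene length, so levels are compared between libraries and not between genes.

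The deposited log2 values were fitted with limma 3.58.1 (R 4.3.3, mean-variance trend) as 4 group means over all 18 libraries, so the WT and double mutant libraries enter the shared spread alone. There were 14 residual degrees of freedom, and Benjamini-Hochberg adjustment ran over the 15206 genes with at least 0.635 CPM (10 reads at the median depth) in 3 libraries and 15 reads in all. Blocks were fitted as 6 means, and both are compared with the same 3 p53 libraries. Fold changes are on the scale of log2 of reads plus 1, which understates changes of low genes. The fit was tried on simulated reads drawn separately for each library, without blocks. That trial cannot show how far the calls hold in these data, where libraries form blocks. Same-numbered E20 and p53 libraries did not deviate together from their block means (r = -0.047, 0.045 and 0.059 for numbers 1, 2 and 3). Over all pairs r lay between -0.101 and 0.059, so the numbers do not pair the libraries.

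Genes are named by a rule: Trp53, Pik3ca, up to 12 per direction by log2 difference among genes at 5 CPM or more, up to 8 per direction by CPM difference, up to 4 (8 for 5 lists) of each list by adjusted p, and 4 with opposite blocks. Not all that the rule names are described, and genes that complete a count of 5 or fewer were named after their values were seen. Members, lists and tests were chosen with earlier results of these data known. Positions are from GENCODE M21, and promoter windows from RefSeq GRCm38.p6. Alternatives were other scalings, pseudocounts, filters, weights, a replicate block, block means, a 2-fold minimum, and each library or block left out.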

Additional observations from a re-analysis of the deposited data

Results flagged for a closer look

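A gap of 1 library to the nearest of the other 5, as a share of the whole range of the 6 E20 libraries on the deposited log2 scale, was read against Dixon's 95% critical value for 6 samples, over 154 of the genes named. Chance flags about 1 in 20 groups of 6 independent samples from 1 normal distribution. The E20 libraries form 2 blocks, so that rate need not hold here, and a gap between blocks can hide a library that lies apart inside its block. No test was made of why a library lay apart. For 4 genes the gap arose where E20 held 0 to 2 reads in all: Dlk1 in E20 library 2 (0.971), Rian in E20 library 2 (0.949), Ckm in E20 library 2 (0.824) and Meg3 in E20 library 3 (0.809). Ckm had 0 reads in the 6 libraries, so its gap reflects the scaled totals alone. Cdh6 in E20 library 5, at 0 CPM, had a gap of 0.683. Mylpf in E20 library 3, at 0.545 CPM against 1.11 CPM or more in the other 5, had a gap of 0.682. H2-Q4 in E20 library 1, at 26.1 CPM against 30.7 CPM or more, had a gap of 0.638.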

How the results depend on the processing

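The 4702 calls, and the 4450 genes that moved the same way in both blocks, depend most on what counts as a replicate. With a 2-fold minimum 526 genes remained called and 526 also met the rule, with 68 of the 290 list genes and 69 of the 175 genes of the naming rule. Over 6 block means 0 genes were called, and 0 list genes and 0 named genes. Sample weights gave 7919 calls, and asking for an adjusted p under 0.05 in both block contrasts gave 6783 genes. The cause was not tested. With the replicate number as a block, a number that does not pair the libraries, 5660 genes were called and 4546 met the rule. With the 9 libraries alone 6156 met it.

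Leaving out 1 library gave between 3350 and 4754 calls and between 3331 and 4510 genes of the rule, the lowest without p53 library 3. For list genes the range was 231 to 286, for the genes of the naming rule 161 to 174, for E20 1-3 against p53 9483 to 9699 and for E20 4-6 against p53 10604 to 10792. Upper-quartile scaling moved the median of all genes from -0.01 to -0.03.

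Without E20 libraries 1 to 3 the log2 difference was -0.40 for Cdkn1a, -3.14 for Krt14, 1.63 for Mef2c, -0.38 for Myf5 and -0.22 for Pax7. Without E20 libraries 4 to 6 it was -3.08 for Brinp3, -0.059 for Mki67, -1.36 for Plac8 and -0.23 for Srebf2. With the replicate block it was -1.89 for Brinp3, -1.29 for Col1a1, -2.29 for Myf5 and -0.74 for Pax7. For Myf5 it ran from -0.025 to 0.17 when 1 library was left out. Each of these other than the last is opposite in sign to the value over all libraries, and none of these genes was called there. Myf6, B2m and Trp53i11 reached adjusted p of 0.163, 0.0757 and 0.086 without some library or block.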
